A study of Mus musculus with 8 samples.

Results

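The proteasome is the barrel-shaped protease that degrades most ubiquitin-tagged proteins of a cell. Its core particle is built of stacked alpha and beta rings, and 3 of the beta subunits carry the cutting sites. A regulatory particle caps the barrel: its ring of ATPases unfolds the substrate, and its non-ATPase subunits bind ubiquitin chains, remove them and hold the cap together. Neurons depend on this system for the turnover of misfolded and synaptic proteins, and ubiquitin-positive inclusions are a hallmark of the diseases in which the RNA-binding protein TDP-43 leaves the nucleus. The genes described here were those whose symbols in the deposited symbol table begin with Psma, Psmb, Psmc, Psmd, Psme, Psmf or Psmg followed by a digit. The rule took 43 genes out of the 10601 in that table without using any measured value. They comprised 7 alpha and 7 constitutive beta subunits, 1 immunoproteasome beta subunit, 6 ATPases, 11 non-ATPase subunits, 7 assembly chaperones and 4 alternative activators or inhibitors. All 43 passed the filter on low values (10 RPM, scaled to the column sum, reached by 1 mouse or more), and 35 passed it in every mouse. The first count was largely set in advance, because the symbol table rests on a like threshold.

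RNA was sequenced from the cortex of 8 C57BL/6 mice. The bigenic group (n = 4) carried both Camk2a-tTa, a tetracycline-regulated activator under a Camk2a promoter that is active mainly in excitatory forebrain neurons, and the responder deltaNLS-hTDP-43, a human TDP-43 with a mutated nuclear localization signal whose protein stays largely in the cytoplasm. The nontransgenic group (n = 4), from parents that carried the transgenes, had neither of them. Doxycycline, which keeps the transgene silent, was given by diet to both groups and withdrawn at 28 days of age, and RNA was taken 10 days after. Both groups held 3 males. No group carried a single transgene, so effects of the activator cannot be told apart from those of the human protein, and the cortex holds many cells that do not use the Camk2a promoter. The mice are lettered A to D within each group in the order of the table columns, because the columns could be tied to a group but not to a numbered sample.

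A transcript without a symbol, uc999vvf.1, ran from 29375 to 41550 normalized counts in the bigenic mice and from 5 to 80 in the nontransgenic mice, so each column matched its group. The depth implied by the steps between values ranged from 10.6 to 31.9 M reads in the 7 columns where it could be read, and bigenic mouse B was the shallowest. This mouse also lay apart from the other bigenic mice on the second principal component over all genes (-22.3 against 15.0 to 15.9). Among marker lists, the summed level of 5 choroid plexus markers ran from 14101 to 29169 normalized counts in the bigenic and from 6544 to 8183 in the nontransgenic mice (4 higher, including F5 and Kl), although the label is cortex. Most of the bigenic sum was Ttr (mean 13603, against 724 in the nontransgenic mice). Most of the nontransgenic sum was Enpp2, which was not called (mean 6601.5, against 8515.5 in the bigenic mice). The sum of 8 microglial markers ran from 4261 to 5251 against 5500 to 6412 (5 lower, including Cx3cr1 and P2ry12). The sum of 8 astrocyte markers ran from 123470 to 143059 against 150668 to 162213 (4 lower, including Gja1 and Aqp4). Most of the astrocyte sum was Slc1a2, with means of 90026 in the bigenic and 106787 in the nontransgenic mice. The astrocyte markers S100b (log2 difference 0.19) and Gfap (0.04) had a positive difference and were not called. In the limma comparison given below, 20.5% of all genes tested were higher and 15.4% lower. Of 11 neuronal markers, 2 were higher (with Thy1 the smallest adjusted p) and 6 lower (with Camk2a the smallest), and their sum was 214992 in bigenic mouse B, 160204 to 165403 in the other bigenic mice and 201094 to 218773 in the nontransgenic mice. Of 8 oligodendrocyte markers 1 was higher (Mobp, against Mag which was not called), and of 6 endothelial markers 1 was lower (Flt1, against Cdh5 which was not called). With 1 mouse left out, the neuronal markers called lower numbered 6 without bigenic mouse B, 3 without bigenic mouse A or nontransgenic mouse B and 2 without any other. The astrocyte markers called lower numbered 3 to 5 and the microglial ones 4 to 6. Of all genes tested 10.5% to 20.2% were lower in these fits. Slc1a2 was not called without bigenic mouse A (limma adjusted p = 0.0790) or nontransgenic mouse C (0.106), among others, nor was C1qa without nontransgenic mouse C (0.0973). Mobp was not called without bigenic mouse A or nontransgenic mouse A, B or C (limma adjusted p from 0.0700 to 0.0940), 2 oligodendrocyte markers were higher without bigenic mouse C, and Flt1 was called only without bigenic mouse B or nontransgenic mouse D. No marker list summed to 0, and the part of these levels in the proteasome values was not tested. In bulk tissue, fewer cells of a type and less RNA per cell cannot be told apart.

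The proteasome genes moved little and in both directions. Bigenic and nontransgenic mice were compared on log2(normalized count + 1) with limma, with Benjamini-Hochberg adjustment over all 10588 genes tested, and a gene with an adjusted p below 0.05 is called. In bigenic cortex 9 of the 43 genes were higher (Psmd3, Psmd12, Psmc4, Psmd7, Psmd1, Psme3, Psmc3, Psmd4 and Psmb3) and 4 were lower (Psmb4, Psmd14, Psma6 and Psmg2), while 30 were not called. The 13 calls make 30.2% of the proteasome genes, where 35.9% of all genes tested were called. Those higher make 20.9% against 20.5% of all genes, and those lower 9.30% against 15.4%. The groups of mice did not overlap for 14 of the 43 genes (32.6%, against 39% of all genes tested), which were the 13 called and Psmd8. The median log2 difference was 0.08 over the proteasome genes and 0.03 over all genes tested, and the median size of the difference regardless of sign was 0.24 and 0.25, respectively. The shares called were therefore near or below those of the transcriptome at large, and no test was made over the 43 genes as a list. The subunits that were called, and their direction, are given below as descriptions of single genes. Of the 13 calls, 5 held whichever mouse was omitted and 8 were lost in 1 or more of those fits.

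**Figure D1:**
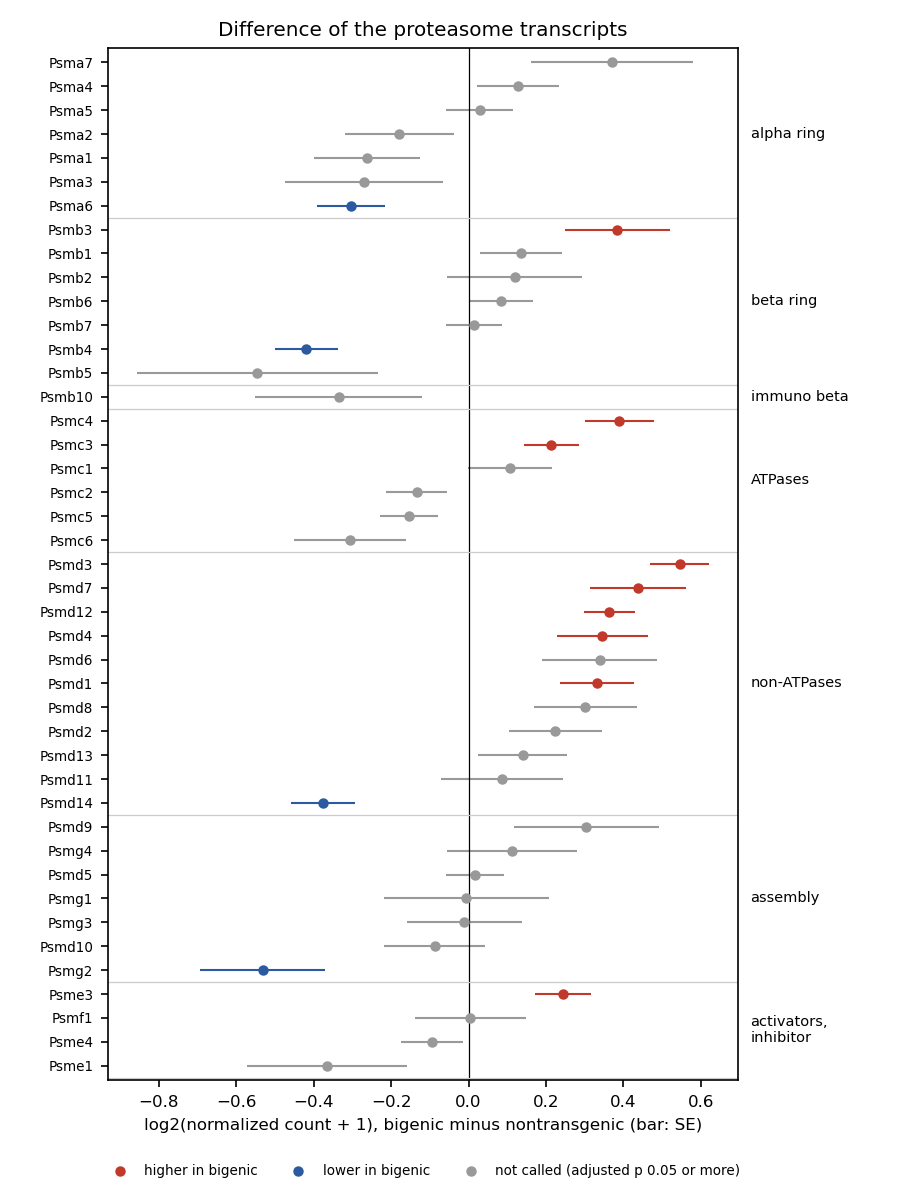
Difference in log2(normalized count + 1) between 4 bigenic and 4 nontransgenic mice for each of the 43 proteasome genes (x axis, points; bars are the standard error), grouped by subcomplex on the y axis. Of the 11 non-ATPase subunits 10 lie above 0 and Psmd14 lies below it, while both core rings spread to either side.

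Of all 10588 genes tested, 5643 had a positive difference, 20.5% were higher and 15.4% lower. The parts of the particle are described beside these shares, without a test. Of the 11 non-ATPase subunits of the regulatory particle, 5 were higher and 1 lower, and 10 had a positive difference (median log2 difference 0.33). Of the 6 ATPases 2 were higher and none lower, and 3 had a positive difference (median -0.01). Of the 14 subunits of both core rings 1 was higher and 2 were lower, and 8 had a positive difference (median 0.02). Of the 7 assembly chaperones 1 was lower (median -0.01), and of the 4 activators and inhibitors 1 was higher (median -0.05). The geometric mean of the 11 non-ATPase transcripts was 1914, 2237, 1845 and 1856 normalized counts in bigenic mice A to D and 1656, 1599, 1656 and 1676 in nontransgenic mice A to D. All 4 bigenic mice were above all 4 nontransgenic mice, and mouse B was the highest. The geometric mean of the 14 core transcripts was 795, 692, 836 and 828 in the bigenic and 823, 811, 849 and 775 in the nontransgenic mice, and the groups overlapped. For the 6 ATPases it ran from 2314 to 2484 in the bigenic and from 2271 to 2450 in the nontransgenic mice, which also overlapped. The ratio of the regulatory (17 genes) to the core (14 genes) geometric mean was 2.60, 3.27, 2.45 and 2.48 in the bigenic and 2.31, 2.23, 2.23 and 2.45 in the nontransgenic mice. The highest nontransgenic mouse, D, was thus level with the lowest bigenic mouse, C, to 3 digits. These averages are descriptions, since the genes share libraries and no test was made over the lists.

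**Figure D2:**
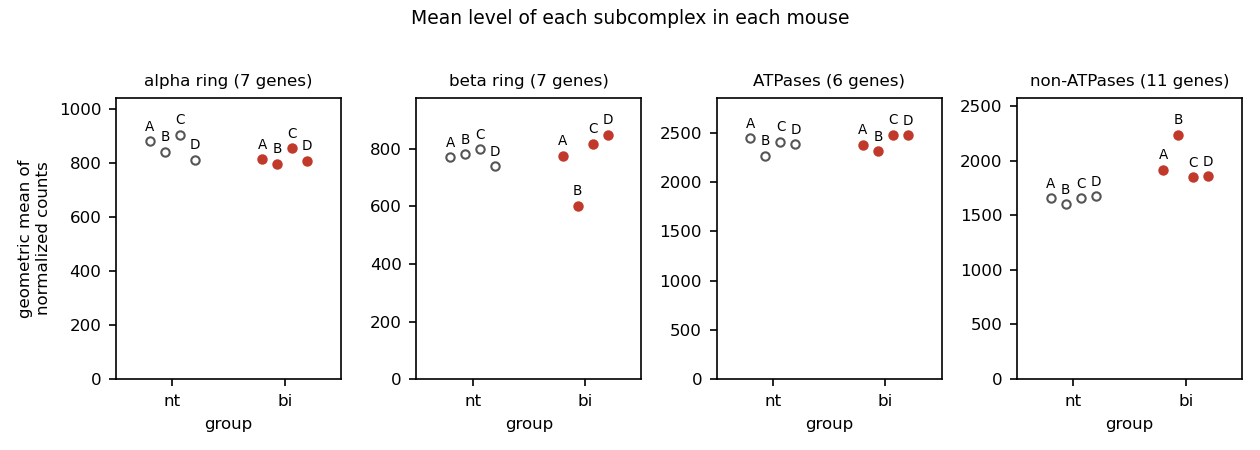
Geometric mean of the normalized counts (y axis, from 0) of the genes of each subcomplex in each mouse (points, lettered A to D; nt nontransgenic, bi bigenic). For the non-ATPase subunits the bigenic mice run from 1845 to 2237 and the nontransgenic mice from 1599 to 1676, while in the other panels the groups overlap.

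Psmd3, a structural subunit of the lid, which is the outer part of the regulatory particle, showed the smallest adjusted p among the proteasome genes. Its normalized counts were 2352, 2775, 2318 and 2452 in bigenic mice A to D and 1671, 1706, 1685 and 1699 in nontransgenic mice A to D. Every bigenic mouse was above every nontransgenic mouse, and the nontransgenic mice differed by less than the bigenic mice did (2474 ± 208 against 1690 ± 15.5, SD, n = 4 each). The log2 difference was 0.55 ± 0.08 (SE, 95% interval 0.38 to 0.72, limma adjusted p = 0.000661). Psmd12, another lid subunit, was at 2178, 2143, 2161 and 2070 in the bigenic and 1663, 1575, 1711 and 1701 in the nontransgenic mice. Its groups were again separate, here with a narrow spread in both, and the log2 difference was 0.36 ± 0.07 (SE, limma adjusted p = 0.00250). Psmd3 lies on chromosome 11 (mm9, 98543868 to 98557293, plus strand) and Psmd12 on the same chromosome (107340798 to 107365676, plus strand).

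Psmd7 and Psmd14 form the pair of lid subunits that removes ubiquitin from substrates: Psmd14 is the active enzyme and Psmd7 its inactive partner. They moved in opposite directions. Psmd7 was at 2359, 3439, 2404 and 2363 normalized counts in bigenic mice A to D and 1822, 1880, 2066 and 1932 in nontransgenic mice A to D. The groups did not overlap, and mouse B stood well above the other bigenic mice (log2 difference 0.44 ± 0.12, SE, limma adjusted p = 0.0207). Psmd14 was at 2002, 1640, 1882 and 1798 in the bigenic and 2517, 2196, 2345 and 2435 in the nontransgenic mice. Here every bigenic mouse was below every nontransgenic mouse (log2 difference -0.38 ± 0.08, SE, limma adjusted p = 0.00684). Psmd14, on chromosome 2 (mm9, 61549751 to 61638433, plus strand), was the only non-ATPase subunit with a negative difference.

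The remaining non-ATPase subunits lay above 0, from 0.09 to 0.35. Psmd1, the large scaffold of the base, ran from 4784 to 6227 in the bigenic and from 3866 to 4427 in the nontransgenic mice (log2 difference 0.33, limma adjusted p = 0.0227). Psmd4, a ubiquitin receptor, ran from 1808 to 2612 against 1497 to 1643 (0.35, limma adjusted p = 0.0432). Both were higher with no overlap, and in both the highest value was that of mouse B. The lid subunits Psmd6 (log2 difference 0.34, limma adjusted p = 0.0991) and Psmd8 (0.30, limma adjusted p = 0.0999) missed the threshold, as did the base subunit Psmd2 (0.22), the lid subunit Psmd13 (0.14) and Psmd11 (0.09), with adjusted p from 0.168 to 0.697. Psmd8 was the one gene whose groups were separate, at 1228 to 1932 against 1130 to 1176, without a call.

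Psmc4, one of the ATPases of the unfolding ring, was at 2697, 3452, 2764 and 2865 normalized counts in bigenic mice A to D and 2334, 2143, 2250 and 2223 in nontransgenic mice A to D. The groups were separate and mouse B was the highest (log2 difference 0.39 ± 0.09, SE, limma adjusted p = 0.00799). Psmc3, another ATPase, was at 2960, 3150, 2765 and 2836 against 2557, 2396, 2563 and 2571. It was higher by a smaller margin (0.21 ± 0.07, SE, limma adjusted p = 0.0388), and its exons overlap those of Slc39a13 on the opposite strand. The other ATPases were not called: Psmc1 was at a log2 difference of 0.11, Psmc2 at -0.13, Psmc5 at -0.15 and Psmc6 at -0.31, with adjusted p from 0.124 to 0.465. Psmc4 lies on chromosome 7 (mm9, 28826726 to 28835120, minus strand).

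Among the core subunits Psmb4, a beta subunit without a cutting site, showed the smallest adjusted p. It was at 2071, 1673, 1758 and 1895 normalized counts in bigenic mice A to D and 2538, 2374, 2501 and 2452 in nontransgenic mice A to D. The lowest nontransgenic mouse exceeded the highest bigenic mouse (1849 ± 174 against 2466 ± 70.9, SD, n = 4 each), and the log2 difference was -0.42 ± 0.08 (SE, limma adjusted p = 0.00359). Psmb4 lies on chromosome 3 (mm9, 94688015 to 94690883, minus strand). Psmb3, also without a cutting site, was at 611, 376, 442 and 452 in the bigenic and 339, 355, 359 and 365 in the nontransgenic mice. Its groups were separate by a narrow gap and mouse A was the highest (log2 difference 0.38 ± 0.14, SE, limma adjusted p = 0.0498). Only 43.0% of the 50-base windows of the Psmb3 exons occur once in the mm9 genome, so its value rests on a part of the transcript and is uncertain. The alpha subunit Psma6 was at 1386, 1657, 1609 and 1450 against 1914, 1908, 2008 and 1697. It was lower in the bigenic mice, with bigenic mouse B close to nontransgenic mouse D (log2 difference -0.30 ± 0.09, SE, limma adjusted p = 0.0220).

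The subunits that carry the cutting sites were not called. Psmb6, the caspase-like subunit, was at 822, 769, 845 and 866 normalized counts in the bigenic and 783, 841, 792 and 703 in the nontransgenic mice (log2 difference 0.08, 95% interval -0.10 to 0.27, limma adjusted p = 0.446). Psmb7, the trypsin-like subunit, was at 889, 817, 895 and 809 against 841, 824, 886 and 824 (0.01, 95% interval -0.15 to 0.18, limma adjusted p = 0.895). For both, the mice of either group were intermingled. Psmb5, the chymotrypsin-like subunit, was at 193, 143, 385 and 434 in bigenic mice A to D and 367, 395, 407 and 358 in nontransgenic mice A to D. Bigenic mice A and B were far below the nontransgenic mice, while C and D lay within or just above them, so that the log2 difference of -0.55 had a wide interval (-1.24 to 0.15, limma adjusted p = 0.195). Of the windows of the Psmb5 exons 45.2% were unique, and the transcript overlaps Mir686 on the same strand, which leaves this gene uncertain too.

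Psmb10, which replaces Psmb7 in the immunoproteasome that immune signals induce, was the one immunoproteasome subunit analysed. Psmb8 and Psmb9 are not analysed here, nor are Psma8, Psmb11, Psme2 and Psme2b. Psmb10 was at 319, 519, 271 and 241 normalized counts in the bigenic and 369, 375, 401 and 496 in the nontransgenic mice. Mouse B was the highest of all 8 and the other bigenic mice were the lowest (log2 difference -0.34, 95% interval -0.82 to 0.15, limma adjusted p = 0.250). Psme1, a subunit of the interferon-induced activator ring, followed the same order, at 201, 323, 171 and 153 against 243, 264, 270 and 272 (-0.37, limma adjusted p = 0.191). Of 8 interferon-response and antigen-presentation genes tested none was called in the limma fit to all mice, where 35.9% of all genes tested were called. None was at an unadjusted p below 0.05 either. The smallest adjusted p were those of Stat2 (log2 difference -0.15, limma adjusted p = 0.328) and Tapbp (0.15, limma adjusted p = 0.425). With so few genes, no test was made over this list.

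Psme3, which forms a nuclear activator that works without ubiquitin or ATP, was at 1719, 1876, 1701 and 1834 normalized counts in the bigenic and 1582, 1436, 1535 and 1467 in the nontransgenic mice. The groups were separate (log2 difference 0.24 ± 0.07, SE, limma adjusted p = 0.0238). The large activator Psme4 (-0.09) and the inhibitor Psmf1 (0.00) were not called. Psmg2, which with Psmg1 guides the assembly of the alpha ring, was at 123, 105, 154 and 156 against 212, 170, 193 and 197. It was lower in every bigenic mouse and had the largest difference in size among the calls that were lower (-0.53 ± 0.16, SE, limma adjusted p = 0.0272). Its partner Psmg1 (-0.01), Psmg3 (-0.01) and Psmg4 (0.11), and the chaperones of the ATPase ring Psmd5 (0.02), Psmd9 (0.30) and Psmd10 (-0.09) were not called, with adjusted p from 0.229 to 0.986. Of the alpha subunits other than Psma6, Psma7 was at a log2 difference of 0.37, Psma4 at 0.13, Psma5 at 0.03, Psma2 at -0.18, Psma1 at -0.26 and Psma3 at -0.27, none called. The beta subunits Psmb1 (0.14) and Psmb2 (0.12) were not called.

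**Figure D3:**
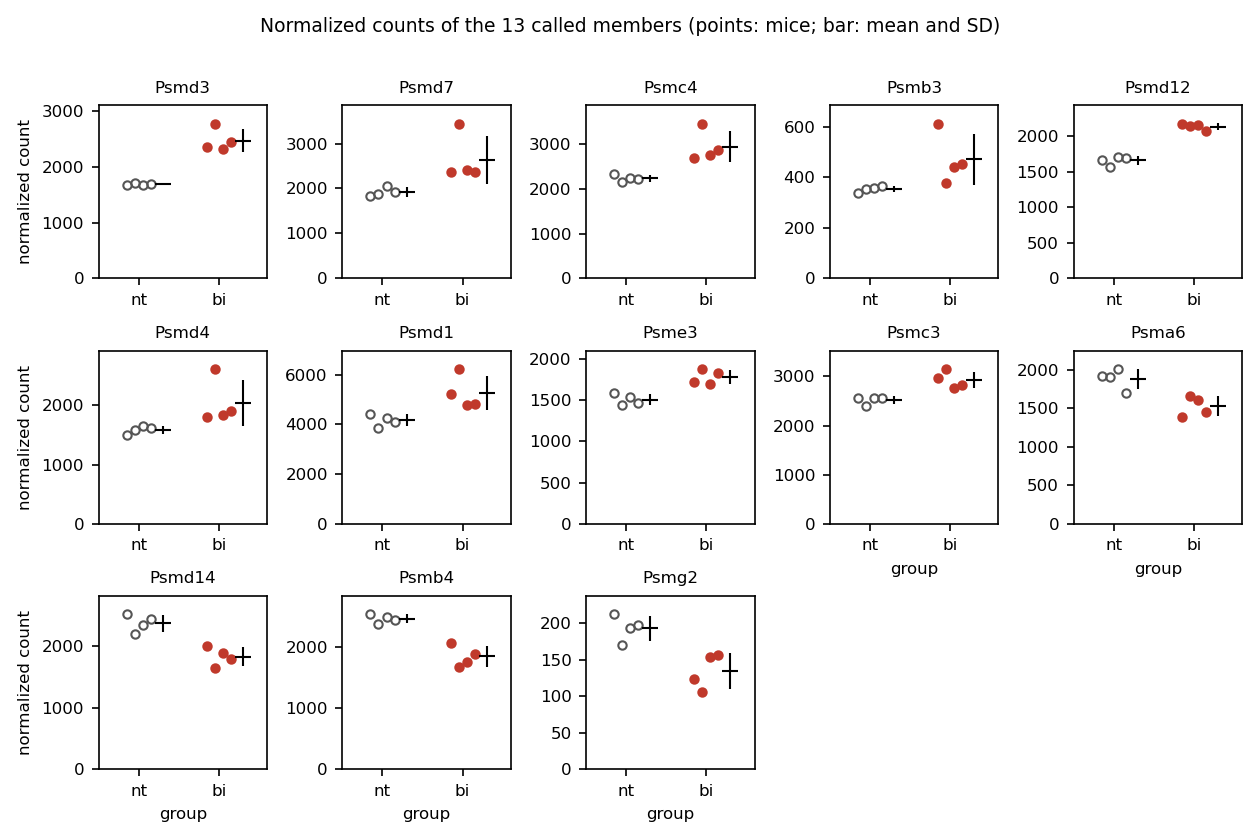
Normalized counts (y axes, from 0, a scale for each gene) of the 13 proteasome genes called, in 4 nontransgenic (nt, open points) and 4 bigenic (bi, filled points) mice, with mean and SD beside them. In each panel the groups do not overlap; Psmd3 has the largest upward difference (0.55 on the log2 scale) and Psmg2 the largest downward one (-0.53).

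Bigenic mouse B weighed on many of these values. It was the highest or the lowest of the 4 bigenic mice for 41 of the 43 proteasome genes (95.3%), and for 81.5% of all genes tested. For the other 7 mice this share of the proteasome genes ran from 27.9% to 55.8%. In mouse B the transcript of the alpha subunit Psma7 was at 3601 normalized counts, against 1636 to 2156 in the other bigenic and 1639 to 1731 in the nontransgenic mice. Psma1, Psma2, Psma3, Psmb2, Psmc6 and Psmd11 were among the transcripts lower in mouse B than in the other 7 mice. The GC content of the exons moved with these differences: over the 43 genes the Pearson correlation of exon GC content with the deviation of mouse B from the other bigenic mice was 0.39 and with the difference between groups 0.31, and over 10297 genes tested it was 0.38 and 0.19. Each value shares its libraries with the rest, and the part of GC content was not tested beyond the correction given in the closing section. The exon GC content had a median of 53.5% in the 9 genes that were higher, 47.4% in the 4 that were lower and 49.4% in the 30 not called.

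**Figure D4:**
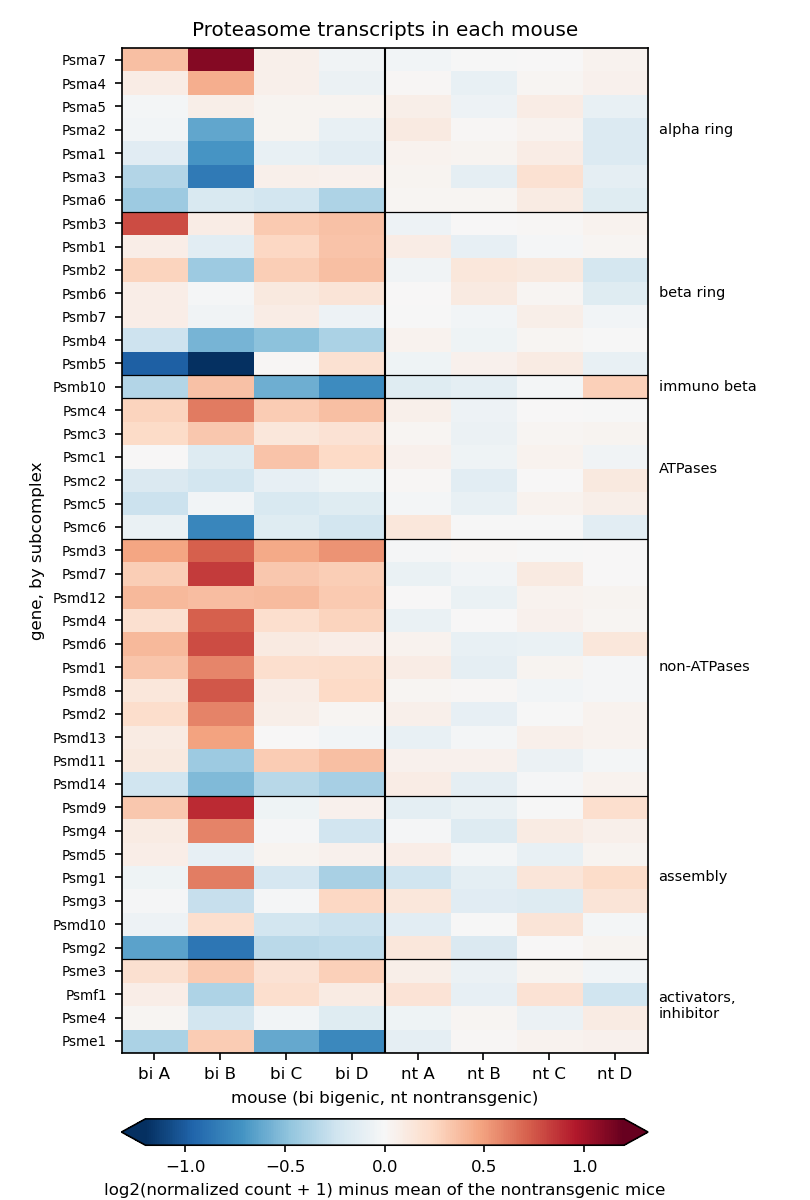
Log2(normalized count + 1) of each proteasome gene (rows, by subcomplex) in each mouse (columns) minus the mean of the 4 nontransgenic mice, as colour; values beyond 1.2 are drawn at the end of the scale. The column of bigenic mouse B holds the extreme value of its group in 41 of the 43 rows.

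With bigenic mouse B left out, 12 proteasome genes were higher and 7 lower, where 25.3% and 20.2% of all genes tested were. All 13 calls made with it were kept. The genes added were Psmb1 (log2 difference 0.22, limma adjusted p = 0.0320), Psmb2 (0.31, limma adjusted p = 0.0236) and Psmd11 (0.26, limma adjusted p = 0.0191), which were higher, and Psmb10 (-0.56, limma adjusted p = 0.00452), Psme1 (-0.59, limma adjusted p = 0.00191) and Psmc5 (-0.19, limma adjusted p = 0.0258), which were lower. Of the 11 non-ATPase subunits 6 were then higher and 1 lower, and of the 8 interferon-response and antigen-presentation genes 1 was lower.

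Leaving out each of the 8 mice in turn kept the sign of all 13 calls but not all of the calls. Psmd3, Psmd12 and Psmc4, which were higher, and Psmb4 and Psmd14, which were lower, were called in all 8 fits, and their highest adjusted p was 0.0304, that of Psmc4. The number called higher fell to 3 without nontransgenic mouse B, 4 without nontransgenic mouse C or D and 5 without nontransgenic mouse A or bigenic mouse D. The share of all genes tested that were higher fell from 20.5% to 14.3%, 14.6%, 18.7%, 15.2% and 17.4% in these fits, in the order named. The number called lower fell to 2 without bigenic mouse A or nontransgenic mouse A or C, where 14.0%, 10.8% and 10.5% of all genes tested were lower. Of the other 8 calls, Psmd7 was lost without nontransgenic mouse A or B, Psmd1 without B, C or D of that group, and Psme3 without any of these or bigenic mouse D. Psmg2 was lost without bigenic mouse A or nontransgenic mouse A, C or D, Psma6 without bigenic mouse A or D or nontransgenic mouse A, B or C, and Psmd4 without bigenic mouse D or any nontransgenic mouse. Psmc3 was called in 2 of the 8 fits, those without bigenic mouse B or C, and Psmb3 in 1, that without bigenic mouse B. The adjusted p of the lost calls ran from 0.0577 to 0.0608 for Psmd7, 0.0504 to 0.0731 for Psmd1, 0.0536 to 0.0793 for Psme3, 0.0576 to 0.0819 for Psmg2, 0.0524 to 0.0736 for Psma6, 0.0617 to 0.110 for Psmd4, 0.0597 to 0.117 for Psmc3 and 0.0682 to 0.116 for Psmb3. Among the 11 non-ATPase subunits, from 2 (without nontransgenic mouse B) to 6 were higher and 1 was lower in each fit, and 3 were higher without nontransgenic mouse A, C or D.

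Levels can be compared between genes only per length. Per kilobase of annotated exon, the nontransgenic means spanned from 68.9 normalized counts (Psma3) to 2515 (Psmc5). The ATPases were the highest as a list, with a median of 1394 and a range of 991 to 2515. The alpha subunits had a median of 927, the non-ATPase subunits 863 and the constitutive beta subunits 727, and each of these lists spanned a wide range. The assembly chaperones, which leave the finished particle, lay between 148 and 454. Of the 43 genes, 26 had only unique 50-base windows and 34 had at least 90% of them unique. Besides Psmb3 and Psmb5, the shares were under 80% for Psma5 (54.5%), Psma4 (67.8%) and Psmd2 (72.6%). Only reads with a single location were counted, so levels per kilobase of such genes are likely understated. The levels were not corrected for this, which leaves the order of the alpha, beta and non-ATPase medians uncertain. Exons of 7 genes overlap another gene on the opposite strand, among them Psmd3 with Gm12356 and Psmc3, and the counting was not stated to use strand.

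Proteasome genes are known targets of Nfe2l1, a membrane-anchored transcription factor that raises their transcription when the proteasome is impaired, and which binds with small Maf proteins to the antioxidant response element. The element was searched here as TGACNNNGC, and the box bound by NF-Y as CCAAT, each on both strands and each counted once per promoter, with overlap between the motifs not considered. RefSeq promoters (GRCm38.p6, 250 bases before to 50 after the gene start) were given for 36 of the 43 genes. The first motif was in 6 of these genes (16.7%) and in 14.0% of the 27025 genes in the promoter table, and CCAAT was in 12 (33.3%) and in 41.1%. The matches to the first motif in proteasome genes are shown with their flanks on the gene's strand. Capitals mark the match, and in Psmc6, Psmd12 and Psme4 the match is the reverse complement. Psmd12 was higher in the bigenic mice, and the other 5 were not called.
Psmb5: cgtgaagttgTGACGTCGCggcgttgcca
Psmb6: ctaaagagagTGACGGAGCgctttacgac
Psmd9: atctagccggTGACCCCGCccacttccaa
Psmc6: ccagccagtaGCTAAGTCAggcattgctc
Psmd12: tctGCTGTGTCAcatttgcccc
Psme4: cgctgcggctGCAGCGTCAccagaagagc

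The windows lie, in GRCm38.p6, at chr14:54618024-54618052 on the minus strand for Psmb5 and on the plus strand at chr11:70525338-70525366 for Psmb6, chr5:123228149-123228177 for Psmd9, chr14:45329587-45329615 for Psmc6, chr11:107479278-107479299 for Psmd12 and chr11:30771758-30771786 for Psme4. Counted from the gene start, the first base of the match is at -47 in Psmb5, -9 in Psmb6, -31 in Psmd9, -227 in Psmc6, -247 in Psmd12 and -7 in Psme4. Of the genes called higher 6 had a promoter in the table and 1 held TGACNNNGC, while 3 held CCAAT. Of the genes called lower 3 had a promoter, of which none held TGACNNNGC and 2 held CCAAT. A match is a run of letters and not a measured binding site.

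Of 7 genes of the control of proteasome transcription, 3 were higher and 1 lower, where 20.5% and 15.4% of all genes tested were. Nfe2l1 itself was at 11231, 14979, 10699 and 11384 normalized counts in bigenic mice A to D and 8988, 8646, 8964 and 10186 in nontransgenic mice A to D. It was higher with no overlap (log2 difference 0.38 ± 0.11, SE, limma adjusted p = 0.0225), but was not called without nontransgenic mouse A, B or C (limma adjusted p = 0.0601 to 0.0680). Ngly1, the enzyme that removes sugars from Nfe2l1 during its activation, was at 359, 333, 364 and 353 against 542, 561, 520 and 445. It was lower in every bigenic mouse (-0.55 ± 0.09, SE, limma adjusted p = 0.00197). Bach1, a repressor at the same element, was at 704, 908, 637 and 772 against 530, 583, 509 and 574 and was higher (0.45 ± 0.11, SE, limma adjusted p = 0.0124), and the third gene that was higher was its relative Bach2. Without nontransgenic mouse A, B or C only Bach1 of these 3 was called higher, where 15.2%, 14.3% and 14.6% of all genes tested were. Bach2 was also lost without bigenic mouse C or D (limma adjusted p = 0.0577 and 0.0823). Nfe2l2 (-0.25), Mafg (0.05) and Mafk (-0.12) were not called, but Nfe2l2 was called lower without bigenic mouse A (-0.36, limma adjusted p = 0.0319), which made 2 lower.

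Of 7 proteasome partners outside the symbol rule, 1 was higher and 1 lower, where 20.5% and 15.4% of all genes tested were. Both calls were kept in all 8 fits with a mouse left out. Shfm1, the symbol in the table for the small lid subunit now called Sem1, was at 1365, 1361, 1244 and 1211 normalized counts in the bigenic and 951, 877, 901 and 982 in the nontransgenic mice. It was higher (log2 difference 0.48 ± 0.08, SE, limma adjusted p = 0.00133). Of the other lid subunits, Psmd3, Psmd7 and Psmd12 were also higher and Psmd14 was lower, while Psmd6, Psmd8, Psmd11 and Psmd13 were not called. Ube3c, a ubiquitin ligase that works on the proteasome, was at 1861, 1942, 1916 and 1861 against 2552, 2391, 2371 and 2361 and was lower (-0.35 ± 0.07, SE, limma adjusted p = 0.00278). Pomp, the chaperone of core assembly, was at a log2 difference of -0.06 (limma adjusted p = 0.811), and the deubiquitinase Usp14 at -0.18 (limma adjusted p = 0.191). Adrm1 is not analysed here.

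Of 11 ubiquitin shuttles and cofactors of the p97 unfoldase, 5 were higher (Zfand2a, Nploc4, Ufd1l, Ubqln4 and Ddi2) and 2 were lower (Ubqln2 and Zfand5). Of all genes tested 20.5% were higher and 15.4% lower. Ubqln1, Vcp, Zfand2b and Rad23b were not called. Zfand2a, a stress-induced partner of the proteasome, was at 1573, 1654, 1861 and 1953 normalized counts in the bigenic and 1022, 1038, 1044 and 1013 in the nontransgenic mice (log2 difference 0.77 ± 0.08, SE, limma adjusted p = 0.000172). Nploc4, which with Ufd1l brings ubiquitinated substrates to p97, was at 2132, 2287, 2276 and 2430 against 1540, 1494, 1486 and 1559 (0.58 ± 0.07, SE, limma adjusted p = 0.000277). Both were higher with wide gaps between the groups. Ubqln2, a shuttle in which mutations cause amyotrophic lateral sclerosis, ran from 2058 to 3967 against 5478 to 7132 and was lower (-0.91, limma adjusted p = 0.00572). With 1 mouse left out, 5 of the 11 were higher in every fit, where 14.3% to 25.3% of all genes tested were. From 2 to 4 were lower, where 10.5% to 20.2% of all genes were. The number lower was 3 without bigenic mouse B (20.2% of all genes) and 4 without bigenic mouse C (14.5%). Of 3 ubiquitin genes and activating enzymes 1 was higher, in all 8 such fits: Uba1, the main activating enzyme, at 6557, 8200, 6468 and 6582 against 5270, 5074, 5119 and 5346 (0.41 ± 0.09, SE, limma adjusted p = 0.00562). The ubiquitin gene Ubb, with the next smallest adjusted p in this list, was at a log2 difference of -0.16 and not called.

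**Figure D5:**
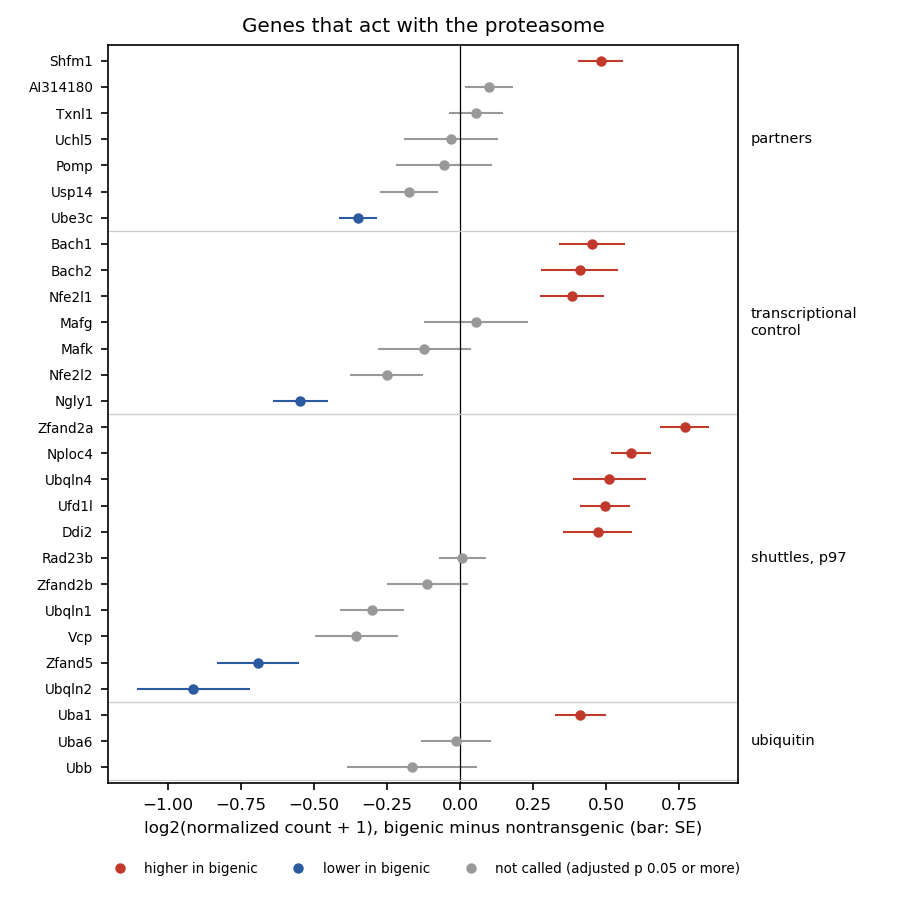
Difference in log2(normalized count + 1) between 4 bigenic and 4 nontransgenic mice (x axis, points; bars are the standard error) for the genes that act with the proteasome, by list on the y axis. Zfand2a is the highest at 0.77 and Ubqln2 the lowest at -0.91.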

How the data were processed

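RNA from the cortex of 4 bigenic and 4 nontransgenic mice was measured as polyadenylated RNA in 50-base single-end reads. Per the labels and the study's methods, adaptors were removed with cutadapt, Bowtie 0.12.7 placed the reads on mm9, those with a single location were kept, and bedtools counted them over genes. The deposited values are a signal, normalized counts rounded to whole numbers, for 28662 transcripts in each mouse. Division by a size factor per mouse is inferred from the values. The authors' second table gave the gene symbols. Its log2 fold changes and p-values came from a comparison by the authors and were not used.

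The symbols of 10601 genes were joined by transcript. Genes that reached 10 RPM (scaled to the column sum) in 1 mouse or more (10588) were fitted as log2(value + 1) with limma 3.58.1 in R 4.3.3 with a mean-variance trend and Benjamini-Hochberg adjustment, after a test on simulated data. Raw counts could not be recovered in every mouse, because 1 read was worth less than 1 normalized count in most columns where it could be read and in 1 it could not be read. In the 7 columns 3 reads were worth 1.94 to 6.20 normalized counts, and column totals ran from 20.1 to 22.0 M. Exon lengths, GC content and unique windows came from the GENCODE annotation and genome of the mm9 build, and matplotlib drew the plots.

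Proteasome genes were grouped by subunit role. The values of every mouse are given for the catalytic and immunoproteasome subunits and for up to 3 called genes with the smallest adjusted p in each subcomplex; in lists outside the rule the 2 genes with the smallest adjusted p are named, with Nfe2l1, Pomp and Usp14. Values beyond this rule, such as those of Psma7 and Psme1, were chosen after they were seen. The genes and lists were chosen with earlier results of these data known. The alternatives were other pseudocounts, filters, scalings, weights and thresholds, each mouse left out in turn, and, chosen after seeing the data, a correction for GC content and length. Symbols without a row were not analysed here. Some genes of the lists outside the rule are not reported here and were left out of the list counts.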

Additional observations from a re-analysis of the deposited data

Results flagged for a closer look

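In groups of 4 mice, a value was singled out when its gap to the nearest other mouse, as a share of the range of the group, exceeded Dixon's 95% critical value. This held for 5 of the 86 groups (43 genes in each genotype), and chance gives about 1 in 20. Of the 5, 4 were in bigenic mouse B. Psmd7 was at 3439 normalized counts in that mouse, against 2359 to 2404 in the other bigenic mice. Psmd4 was at 2612, against 1808 to 1909. Psmb2 was at 302, against 493 to 527. Psma1 was at 790, against 1175 to 1215. The other was Psmc3 in nontransgenic mouse B, at 2396 against 2557 to 2571 in the rest of its group.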

How the results depend on the processing

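No paired analysis was possible because the columns carry no replicate numbers. Under quantile normalization 5 proteasome genes were higher and the median log2 difference was 0.041, where 3849 of the 10588 genes tested were called in either direction. With weights for the mice 15 were higher and 10 lower, where 6455 of all genes were called. At an adjusted p below 0.01, 3 were higher and 2 lower, where 2057 of all genes were called, and at an adjusted p below 0.05 with a change of at least 1.5-fold 0 were higher and 0 lower, where 1314 of all genes passed. At an unadjusted p below 0.05 the number was 15. With 1 mouse left out, from 3 to 12 were higher and from 2 to 7 lower. In these fits 14.3% to 25.3% of all genes tested were higher and 10.5% to 20.2% lower. The median over the proteasome genes ran from 0.027 to 0.087. Other pseudocounts, filters and rescaling to one total kept both counts within 1.5 times. The correction for GC content and length, chosen after seeing the data, left 7 higher and 3 lower. Psmb3 (adjusted p = 0.0531), Psma6 (0.0579) and Psmc3 (0.0706, all limma) were lost. The number of all genes called under this correction, or without the filter, is not given here, so these counts cannot be weighed against it. Psmb3 was also lost under both other pseudocounts and under rescaling, Psmb3, Psmc3 and Psmd4 without the filter (leaving 6 higher), and these and Psme3 under quantile normalization. Over single genes and all alternatives no called difference reversed. The alternative without a non-proteasome symbol gave no value, since the rule found no such gene. Depth limits the lowest genes such as Psmg2 and Psma3, for which 3 reads in the shallowest mouse are worth 6.20 normalized counts.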
